A study of Rattus norvegicus with 5 samples.

Results

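The genes described here carry the prolactin and growth hormone signal in liver: the receptors Prlr and Ghr, the feedback inhibitors Socs2 and Cish, the signal transducers Stat5a and Stat5b, and the transcription factors Bcl6 and Onecut1. They were taken as a list of 8 gene symbols and matched to array probe sets through GEO's platform annotation. Of the 8, 6 were measured, each by 1 probe set, among 8797 probe sets and 7589 named genes in all. Cish and Bcl6 matched no probe set annotated to a single gene, by symbol or gene ID, and were not analysed here. The 409 probe sets with several symbols and the 785 with none did not enter that match.

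Liver RNA was compared between male rats of 2 inbred strains at 4 months of age on standard chow. PD, the polydactylous rat, is the progenitor strain, and the congenic strain, labelled PD.SHR4 (PD.SHR4a in the series text), carries a stretch of chromosome 4 of the spontaneously hypertensive rat on the PD background. The series title sets the comparison against glucose tolerance in rats deficient in the fatty acid transporter Cd36. Labelled cDNA of 8 rats was pooled per strain and hybridised to Affymetrix Rat Exon 1.0 ST arrays, 3 for PD and 2 for PD.SHR4. Each strain is therefore a single pool as far as the labels say, and p-values reflect array-to-array spread alone. That spread may be technical and leaves out how rats of a strain vary.

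Prolactin and growth hormone are related pituitary hormones whose receptors belong to the class I cytokine receptors and have no kinase of their own. On binding, the kinase JAK2 at the receptor phosphorylates STAT5A and STAT5B, which enter the nucleus and bind DNA, and STAT5 in turn induces SOCS proteins that damp the receptor. In rodent liver, growth hormone drives IGF-I production, and its sex-dependent secretion pattern sets the male and female expression of many cytochrome P450 genes through STAT5B. Rat liver is a known site of the prolactin receptor, more so in females than in males.

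All values are log2 expression as deposited, and differences are PD.SHR4 minus PD with the standard error (SE) of a limma fit over all probe sets. A value said to be below or above 0 is such a difference. A gene was called changed at an adjusted p (Benjamini-Hochberg over 8797 probe sets) under 0.05. The Cd36 probe set, which also covers its neighbour Cd36l1, averaged 7.71 in PD and 4.52 in PD.SHR4 which matched the labels. Array medians were 5.21 to 5.38, with PD array 2 the highest, and lower quartiles were 2.84 to 2.93. Over all probe sets, r was 0.988 to 0.994 within strains (4 pairs) and 0.986 to 0.987 across them (6 pairs). The table carries no detection calls. Precision is limited by having 5 arrays.

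The prolactin receptor gene was the member that changed, and every measured member had a value below 0. Of the 6 genes, 1 (Prlr) fell, 0 rose and 5 failed to pass. Across the array, 0.932% of probe sets were called in either direction and 0.659% were called lower in PD.SHR4. The calls split into 58 lower and 24 higher, against 59 and 41 with each array centred on its median and 65 and 47 after a further quantile normalisation. In each of the 6 genes both PD.SHR4 arrays lay below all 3 PD arrays, which held for 17.1% of all probe sets. The median log2 difference of the 6 genes was -0.65, and 50.0% of all probe sets had a difference below 0.

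**Figure D1:**
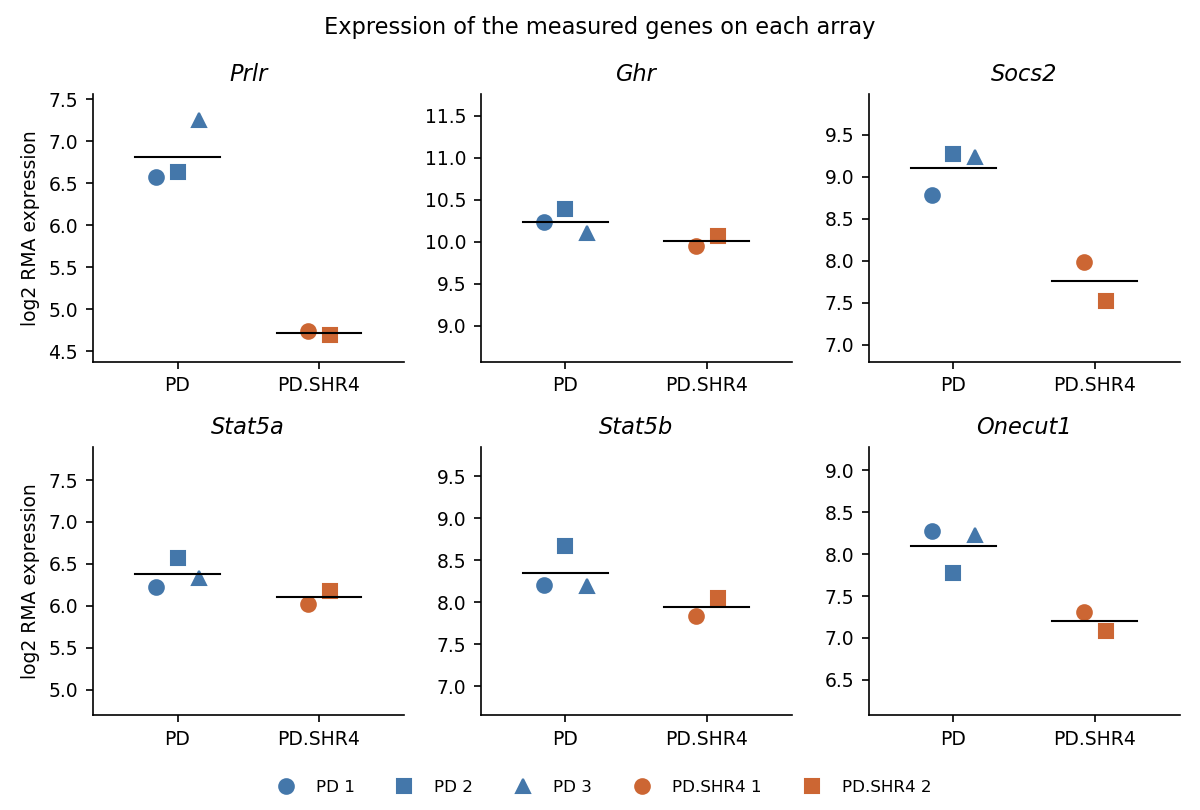
Log2 RMA expression of the 6 measured genes (vertical axis, each panel spanning the same number of log2 units) on the 3 PD arrays in blue and the 2 PD.SHR4 arrays in orange. Marker shapes give the array and black lines the strain means. Prlr lies between 6.57 and 7.25 in PD and at 4.69 and 4.73 in PD.SHR4, while the Ghr arrays of the strains are 0.030 apart at their nearest.

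Prlr encodes the membrane receptor of prolactin, which in rats also binds placental lactogens, and it is transcribed from alternative first exons. Its probe set is a summary over the gene's core probes, so the long and short receptor forms were not separated. RefSeq lists 2 transcription starts for Prlr in the promoter table used here (assembly GRCr8), both on the plus strand of chromosome 2, and 1 for Ghr on the minus strand. The 250 bases before each start are shown because Prlr is the gene that passed the test and Ghr is the related receptor that did not. Capitals mark matches to the STAT5 palindrome TTCNNNGAA or to ATTGAT, a core of the HNF6 (ONECUT1) site, both searched on both strands.
Prlr start 1 (chr2:60861515-60861764, plus strand): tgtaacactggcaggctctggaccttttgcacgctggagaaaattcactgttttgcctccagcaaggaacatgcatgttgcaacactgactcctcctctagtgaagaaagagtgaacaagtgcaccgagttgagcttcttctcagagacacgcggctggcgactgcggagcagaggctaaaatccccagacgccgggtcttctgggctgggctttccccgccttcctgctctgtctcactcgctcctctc
Prlr start 2 (chr2:60909409-60909658, plus strand): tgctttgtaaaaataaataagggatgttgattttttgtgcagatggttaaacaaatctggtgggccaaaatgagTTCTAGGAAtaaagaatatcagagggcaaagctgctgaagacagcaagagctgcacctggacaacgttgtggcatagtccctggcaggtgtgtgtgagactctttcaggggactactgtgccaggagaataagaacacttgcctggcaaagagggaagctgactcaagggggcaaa
Ghr (chr2:54432076-54432325, minus strand): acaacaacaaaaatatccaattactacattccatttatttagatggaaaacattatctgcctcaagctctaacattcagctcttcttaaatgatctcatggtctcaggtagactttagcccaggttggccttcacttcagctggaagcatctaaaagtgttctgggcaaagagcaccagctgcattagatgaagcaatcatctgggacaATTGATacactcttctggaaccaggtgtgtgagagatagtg

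The window before the first Prlr start held neither motif and 10 CpG dinucleotides. The window before the second start held 1 CpG and 1 STAT5 palindrome, TTCTAGGAA, whose first base lies 176 bases before the start. The Ghr window held no CpG and 1 ATTGAT, 41 bases before the start. Stat5a and Stat5b, the other measured members with an entry in the table, had neither motif in their windows, and Socs2 and Onecut1 had no entry. Among all 33469 promoter windows of that length, 7.67% held the STAT5 palindrome and 7.10% held ATTGAT on either strand. The 2 motifs share no overlapping match in the windows shown. Which start was used in these livers was not measured.

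Prlr measured 6.57, 6.63 and 7.25 on PD arrays 1, 2 and 3, and 4.73 and 4.69 on PD.SHR4 arrays 1 and 2. The PD arrays were spread, with array 3 the highest, whereas the congenic arrays lay close together, 1.84 log2 units below the lowest PD array. The strain means were 6.82 ± 0.38 (SD, n = 3) and 4.71 ± 0.032 (SD, n = 2). The log2 difference was -2.11 ± 0.23 (SE; 95% interval -2.67 to -1.55; limma adjusted p = 0.0344), so that the congenic signal was 23.2% of the PD signal on the linear scale. Of all probe sets, 0.261% had a difference this low or lower. Prlr passed without PD array 3 (adjusted p = 0.0346). It did not pass without PD array 1 (limma adjusted p = 0.0613) or PD array 2 (0.0515), at log2 differences of -2.23 and -2.20. Without congenic array 1 or 2, which leaves a lone congenic array, its difference was -2.13 or -2.09. For comparison, Cd36 passed without PD array 1 (limma adjusted p = 0.0260) or PD array 2 (0.0472). Without PD array 3, Cd36 did not pass (0.0516). Without shrinkage of the variances, Prlr did not pass (limma adjusted p = 0.207).

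Ghr encodes the growth hormone receptor, through which the pituitary drives hepatic IGF-I, and whose shed outer part is the growth hormone binding protein of plasma. It measured 10.23, 10.39 and 10.10 on the PD arrays and 9.95 and 10.07 on the congenic arrays. PD array 3 and congenic array 2 nearly met, and the order was no longer separate once each array was centred on its median. The means were 10.24 ± 0.14 (SD, n = 3) and 10.01 ± 0.087 (SD, n = 2), and the difference of -0.23 ± 0.14 (SE; 95% interval -0.56 to 0.10; limma adjusted p = 0.549) did not pass. Whether the receptors differed in their strain difference was tested within arrays, as log2 Prlr minus log2 Ghr. This ratio measured -3.66, -3.75 and -2.85 in PD and -5.21 and -5.38 in the congenic strain. The strain difference of the ratio was -1.88 ± 0.29 (SE; 95% interval -2.59 to -1.16). It did not pass (limma adjusted p = 0.0597, over 8800 rows that hold the probe sets and 3 such contrasts), and it passed in 0 of 5 fits that left out an array and in 4 of 12 alternatives in all.

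**Figure D2:**
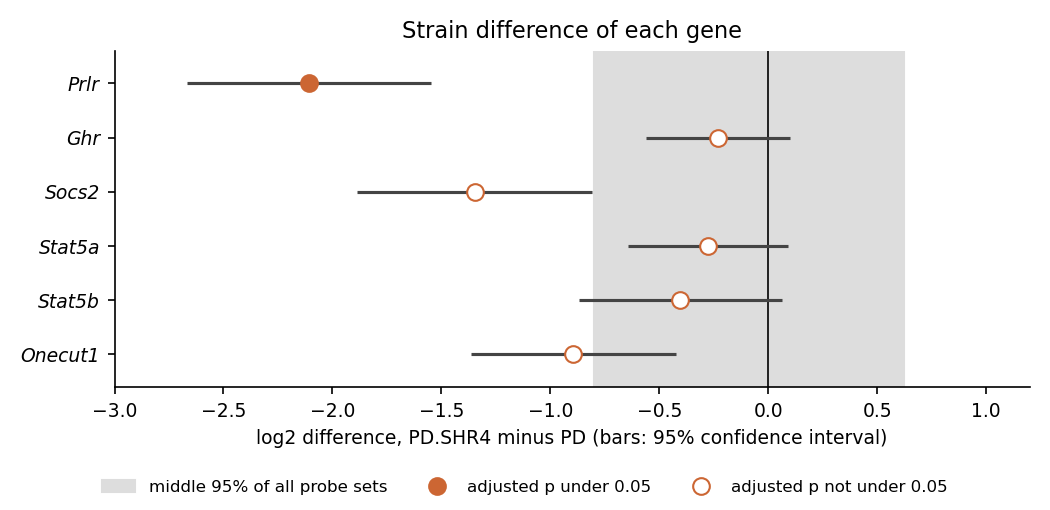
Log2 difference, PD.SHR4 minus PD, of each measured gene (horizontal axis) with its 95% confidence interval from the moderated fit, not adjusted for the number of probe sets. The grey band holds the middle 95% of all probe sets, -0.80 to 0.62. Prlr and Socs2 lie below the band with their whole intervals, Onecut1 has its point below it, and Ghr, Stat5a and Stat5b have their points inside it.

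SOCS2 is the feedback inhibitor most closely tied to growth hormone, since mice without it overgrow. Socs2 measured 8.79, 9.27 and 9.24 on the PD arrays and 7.99 and 7.52 on the congenic arrays. The higher congenic array lay 0.80 log2 units below the lowest PD array, and congenic array 2 was the lowest. The means were 9.10 ± 0.27 (SD, n = 3) and 7.75 ± 0.33 (SD, n = 2). The difference of -1.35 ± 0.22 (SE; 95% interval -1.89 to -0.81) did not pass the test (limma adjusted p = 0.0671), and 0.818% of all probe sets lay this low or lower. Socs2 passed in 5 of 12 alternative fits, at adjusted p-values (limma) from 0.00956 to 0.0484. Prlr passing and Socs2 not does not show that they differed. Log2 Prlr minus log2 Socs2, a contrast chosen after the values were seen, differed between strains by -0.76 ± 0.24 (SE; limma adjusted p = 0.232).

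STAT5A and STAT5B are close paralogues encoded side by side, and STAT5B is the form that male growth hormone pulses activate in rodent liver. Stat5a measured 6.23, 6.57 and 6.33 on the PD arrays and 6.02 and 6.18 on the congenic arrays. Stat5b measured 8.20, 8.66 and 8.19 on the PD arrays and 7.84 and 8.05 on the congenic arrays. In both genes PD array 2 was the highest and congenic array 1 the lowest, and the strains were separated by only 0.046 and 0.13 log2 units. The differences were -0.28 ± 0.15 (SE; limma adjusted p = 0.506) for Stat5a and -0.40 ± 0.19 (SE; adjusted p = 0.440) for Stat5b, and neither passed. Log2 Stat5a minus log2 Stat5b changed by 0.13 ± 0.13 (SE; 95% interval -0.18 to 0.44; limma adjusted p = 0.745), so no difference between the paralogues was detected within that interval. Whether either probe set also binds transcripts of the paralogue was not tested.

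ONECUT1, also called HNF6, is a homeodomain factor that sets hepatocyte and bile duct development and that growth hormone induces in rat liver. Onecut1 measured 8.27, 7.78 and 8.22 on the PD arrays and 7.31 and 7.09 on the congenic arrays. PD array 2 was the lowest of its strain here, unlike in Stat5a and Stat5b, and still lay 0.47 log2 units above the higher congenic array. The means were 8.09 ± 0.27 (SD, n = 3) and 7.20 ± 0.16 (SD, n = 2). The difference was -0.89 ± 0.19 (SE; 95% interval -1.36 to -0.42; limma adjusted p = 0.113) and did not pass. Of all probe sets, 2.03% had a difference this low or lower.

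**Figure D3:**
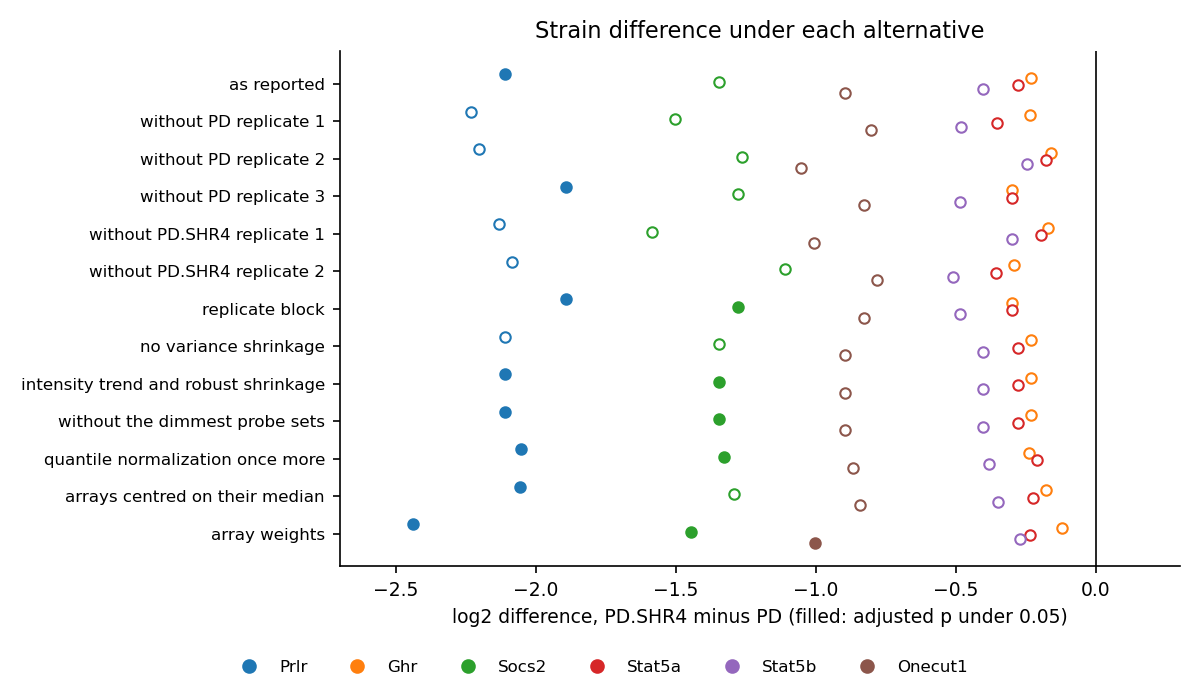
Log2 difference, PD.SHR4 minus PD, of the 6 genes (horizontal axis, 1 colour per gene) in the reported fit and in 12 alternatives (rows). Filled points passed an adjusted p of 0.05. All points lie below 0. Prlr is filled in 7 of the 12 alternatives, Socs2 in 5 and Onecut1 in 1, while Ghr, Stat5a and Stat5b are filled in none.

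None of the 6 measured genes lies on chromosome 4, the chromosome of the introgressed stretch. In the GRCr8 gene order, Prlr and Ghr are on chromosome 2, Socs2 on 7, Onecut1 on 8, and Stat5a and Stat5b next to each other on 10. The 5 measured genes on either side of Prlr had log2 differences of -0.24 to 0.36, and 0 of these 10 were called. The share called among all probe sets was 0.932%. Between Ghr and Prlr lie 12 measured genes, of which 1 was called. It was the complement gene C6, chosen after its value was seen, at 11.45, 11.43 and 11.55 in PD and 10.47 and 10.27 in PD.SHR4 (-1.11 ± 0.12 SE; limma adjusted p = 0.0352). C6 did not pass when any 1 PD array was left out (limma adjusted p = 0.0510 to 0.117). Its difference was -1.21 to -1.01 over the 5 fits without an array. The same stretch holds the related receptor genes Osmr (-0.35 ± 0.14 SE) and, chosen after its value was seen, Lifr (-0.31 ± 0.15 SE), which did not pass. C9 in that stretch, also chosen after its value was seen, was at -0.46 ± 0.11 (SE) and did not pass. Differences of the 12 genes ran from -1.11 to 0.26.

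The 4 genes whose profile over the 5 arrays was nearest to that of Prlr were Irgm, Ifit3, Oas1i and Apol9a. Likeness was the root mean square distance between log2 values centred on each gene's own mean, which was 0.18 for Irgm, 0.23 for Ifit3 and 0.24 for both Oas1i and Apol9a. Irgm, an immunity-related GTPase gene, measured 9.21, 9.01 and 9.74 in PD and 7.63 and 7.14 in PD.SHR4. Apol9a measured 9.49, 9.45 and 10.44 in PD and 8.11 and 8.11 in PD.SHR4. In all 4 genes, as in Prlr, PD array 3 was the highest of the 5, which choosing them by likeness to Prlr favours. Irgm passed the test (-1.93 ± 0.26 SE; limma adjusted p = 0.0457) and Ifit3, Oas1i and Apol9a did not. Irgm did not pass when any 1 PD array was left out (limma adjusted p = 0.0591 to 0.0970). Its difference was -2.18 to -1.69 over the 5 fits without an array. Irgm, Ifit3 and Oas1i are known as interferon-induced genes. Over 5 arrays this likeness is a description, dominated by the strain difference. The genes nearest to Ghr were Atp1b1, Golga2, Tank and Atat1, at distances of 0.026 to 0.033 and log2 differences of -0.25 to -0.19, none of which passed.

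No gene listed as acting beside the receptors passed the test. With 0.932% of all probe sets called, a short list would hold few calls or none, here and in the lists and markers below. Of 13 measured receptor-proximal kinases and adaptors, 0 passed, 9 had values below 0 and the median log2 difference was -0.036, against 0.00020 for all probe sets. JAK2 is the kinase that both receptors use, and Jak2, chosen after its value was seen, had a difference of -0.25 ± 0.14 (SE). The smallest p-values were those of Jak3 (-0.77 ± 0.14 SE; limma adjusted p = 0.0838), Vav1 (-0.52 ± 0.15 SE), Jak1 (0.26 ± 0.12 SE) and Shc1 (0.25 ± 0.13 SE). JAK3 and VAV1 act mainly in blood cells. Of the other STAT genes, Stat3 (0.25 ± 0.17 SE) and Stat2 (-0.19 ± 0.15 SE) were measured and did not pass.

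Among 13 measured genes on the list of other SOCS proteins, phosphatases and PIAS inhibitors, 0 passed, 8 had values below 0 and the median was -0.088. Ptpn2, a phosphatase that acts on JAK and STAT proteins, measured 7.06, 7.33 and 7.18 in PD and 6.44 and 6.46 in PD.SHR4 (-0.74 ± 0.13 SE; limma adjusted p = 0.0772). Ptprc, the leukocyte phosphatase CD45, had a difference of -0.68 ± 0.13 (SE; adjusted p = 0.0832, limma). Ptpn1, which acts on insulin and leptin receptors, measured -0.31 ± 0.12 (SE) and Ptpn6, a phosphatase of blood cells, -0.28 ± 0.12 (SE).

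Markers of leukocytes had values mostly below 0 beside these genes, as single genes without passing the test. Of 9 measured Kupffer cell and macrophage markers, 8 had values below 0 and 0 passed, with a median of -0.44. Their summed linear signal was 6446 to 7328 in PD and 5547 to 5554 in PD.SHR4. Lyz2 was above 0 (0.16 ± 0.12 SE) and Clec4f was at -0.079 ± 0.13 (SE), both named after their values were seen. Of 11 lymphocyte markers, 8 had values below 0 and 0 passed, with a median of -0.39 and a summed signal of 328 to 402 in PD and 253 to 255 in PD.SHR4. The lowest were Gzmb (-2.01), Klrk1 (-1.14) and Prf1 (-0.90), while Cd5 (0.20), Cd2 (0.20) and Cd4 (0.063) were above 0. These markers were named after their values were seen. No marker has an expression level of 0, since the levels carry a background. Of 8 hepatocyte markers, 3 had values below 0, the median was 0.040 and the summed signal was 47279.7 to 48234.5 in PD and 47726.8 to 47940.5 in PD.SHR4. In bulk tissue, fewer cells of a type and less RNA per cell cannot be told apart. The part of leukocyte content in the values of Jak3, Vav1, Ptprc, Socs2 or Prlr was not tested.

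Bile duct cells are also known to express Prlr and Onecut1. Of 5 measured bile duct markers, 1 had a value below 0, 0 passed and the median was 0.15, with a summed signal of 449 to 620.4 in PD and 545 to 549 in PD.SHR4. Of 9 stellate cell and fibroblast markers, 5 had values below 0 and the median was -0.12. The single measured endothelial marker, Emcn, named after its value was seen, measured -0.63 ± 0.22 (SE). Of 14 markers of adipocytes, pancreas and muscle, 5 had values below 0 and the median was 0.029. None of these markers passed.

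Of 13 measured genes on the list of growth factors, binding proteins and other hormone targets, 1 rose, 0 fell and 12 did not pass, with 7 values below 0 and a median of -0.071. Among all 8797 probe sets, 0.932% were called in either direction. The gene that rose was Igfbp2, an IGF binding protein, at 6.32, 6.55 and 6.04 in PD and 8.11 and 7.72 in PD.SHR4 (1.61 ± 0.20 SE; limma adjusted p = 0.0392). Both congenic arrays lay above all 3 PD arrays in Igfbp2, as in 3 of the 13 genes, and below them in 4, Igf1 included. The lower order held for 17.1% of all probe sets, and the share for the higher order was not counted. Igfbp2 did not pass when any 1 PD array was left out (limma adjusted p = 0.0510 to 0.106). Its difference was 1.42 to 1.80 over the 5 fits without an array. Igf1, the main growth hormone target in liver and chosen after its value was seen, measured 11.00, 11.43 and 11.23 in PD and 10.92 and 11.00 in PD.SHR4. Its difference of -0.26 ± 0.16 (SE; limma adjusted p = 0.565) did not pass. Igfals, which holds IGF-I in its plasma complex and was also chosen after its value was seen, was at -0.071 ± 0.24 (SE).

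Of 7 measured genes known to be higher in male than in female rat liver, 0 passed, 1 had a value below 0 and the median was 0.15. Cyp3a2 measured 10.74, 10.83 and 9.94 in PD and 12.17 and 12.32 in PD.SHR4 (1.74 ± 0.29 SE; limma adjusted p = 0.0671). Its arrays did not overlap, as in 3 of the 7 genes, all in the higher direction. The share of all probe sets with that order was not counted, so this count has no background to be read against. Cyp3a18 measured 1.43 ± 0.48 (SE), with PD array 3 far below the others, Hsd11b1 0.20 ± 0.19 (SE) and Cyp2c11, the major male P450, 0.15 ± 0.19 (SE), all as log2 differences. The Cyp3a probe sets may bind each other's transcripts. Of the genes known to be higher in females, 3 were measured and 0 passed. These were A1bg at -0.56 ± 0.37, Cyp2a1 at 0.19 ± 0.13 and Cyp2c12, the major female P450, at 0.45 ± 0.31 (log2 difference ± SE).

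**Figure D4:**
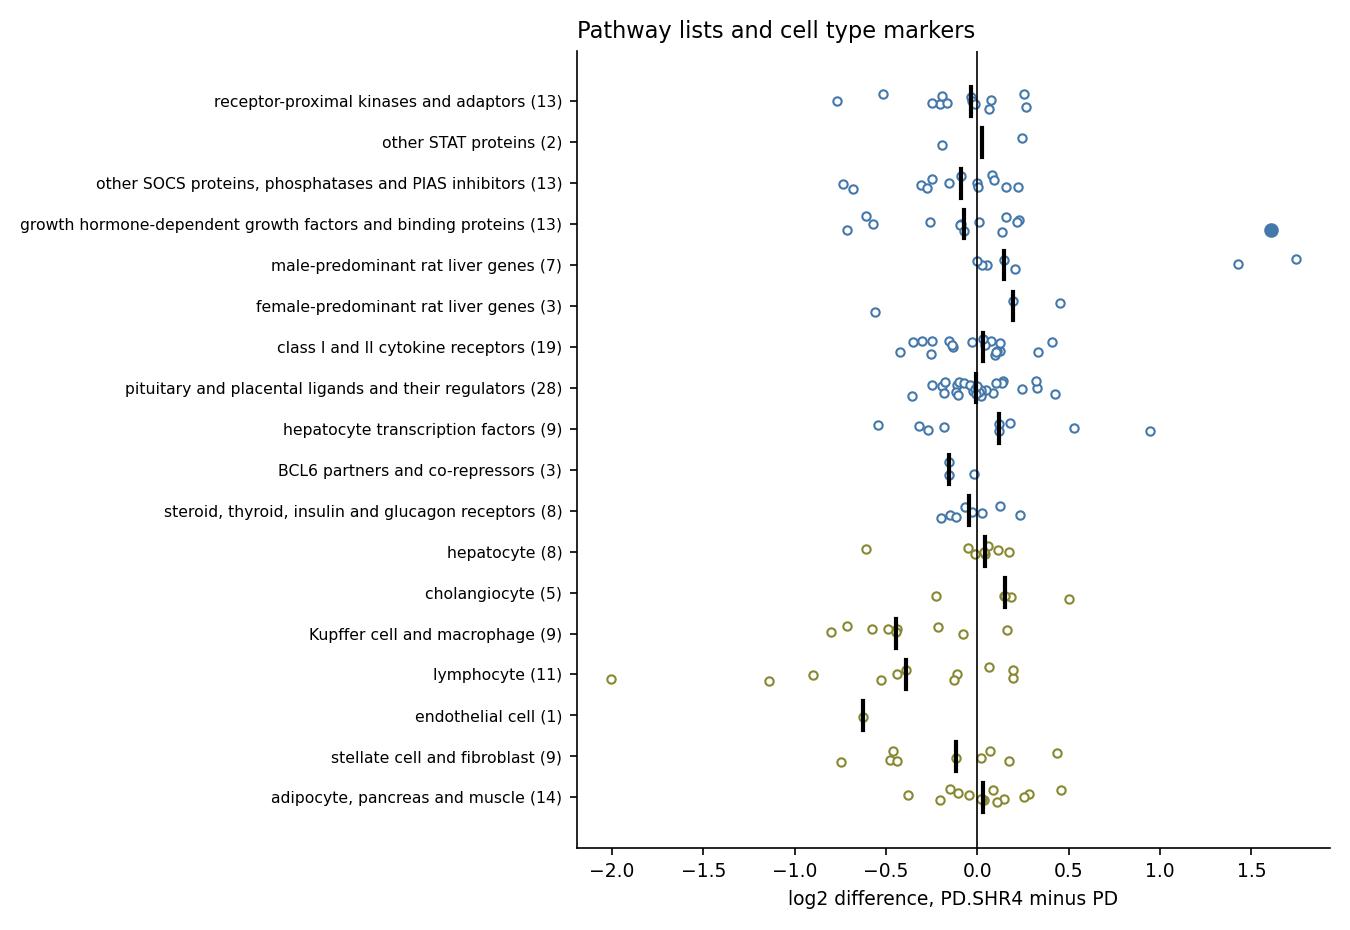
Log2 difference, PD.SHR4 minus PD (horizontal axis), of the measured genes of each pathway list (blue) and cell type marker list (olive), with the number measured in brackets and black bars at the medians. Filled points passed an adjusted p of 0.05. The filled point is Igfbp2 at 1.61. The Kupffer cell and lymphocyte medians lie at -0.44 and -0.39.

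Of 19 other measured class I and II cytokine receptors, 0 passed, 9 had values below 0 and the median was 0.029. The smallest p-values belonged to Il4r (0.41 ± 0.11 SE), Il6r (0.33 ± 0.11 SE), Osmr and Il2rg (-0.42 ± 0.18 SE). Of 28 genes of the pituitary and placental ligands and their regulators, 0 passed, 15 had values below 0 and the median was -0.0056. Those with the smallest p-values were Sstr2 (0.43 ± 0.15 SE), Prl3b1 (0.33 ± 0.12 SE), Gh1 (0.32 ± 0.12 SE) and Prl8a5 (0.25 ± 0.14 SE). Prl3b1, Prl8a5 and Gh1, growth hormone itself, were each dimmer than the lower quartile on all 5 arrays. Gh1 was at 2.39, 2.41 and 2.37 in PD and 2.83 and 2.60 in PD.SHR4.

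Of 9 measured hepatocyte transcription factors that act beside ONECUT1, 0 passed, 4 had values below 0 and the median was 0.12. Foxa3 measured 7.15, 6.59 and 6.81 in PD and 7.92 and 7.67 in PD.SHR4 (0.95 ± 0.20 SE; limma adjusted p = 0.106). Foxa1, a pioneer factor of the same family, measured -0.55 ± 0.12 (SE; adjusted p = 0.119, limma). Nr1h4, the bile acid receptor FXR, was at -0.32 ± 0.14 (SE) and Cebpb at -0.27 ± 0.14 (SE). Of the co-repressors that work with BCL6, Hdac3 (-0.16 ± 0.13 SE), Ctbp2 (-0.16 ± 0.18 SE) and Ctbp1 (-0.019 ± 0.11 SE) were measured and did not pass. Of 8 steroid, thyroid, insulin and glucagon receptors, 0 passed, 5 had values below 0 and the median was -0.047. The smallest p-values there were those of Thrb (0.23 ± 0.14 SE), Gcgr (-0.20 ± 0.12 SE), Insr (-0.15 ± 0.11 SE) and Nr3c2 (0.12 ± 0.19 SE).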

How the data were processed

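Per the labels, the authors computed log2 expression values with RMA in Expression Console (core-gene analysis), and Partek also appears in the submitters' processing notes. RMA models background, normalises arrays by quantiles and summarises probes robustly, which can compress differences of dim genes. Versions of that software are not stated in the sources used here, nor is a genome build. Of 8797 probe sets, 7603 had 1 gene symbol in GEO's platform annotation, and 7584 of these matched RefSeq gene IDs (GRCr8). The brightest probe set stood for a gene. The strain comparison was a two-sided limma fit (version 3.58.1, lmFit with eBayes, R 4.3.3) over all 5 arrays without covariates, tested on simulated data. It was repeated without each array, with the replicate block, with 2 other shrinkage settings, without the dimmest 25% of probe sets, and with 2 normalisations, array weights and a 1.5-fold limit.

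The members and lists were chosen with earlier results of these data known. The text names all measured members, the changed genes of each list or otherwise the 4 with the smallest p, the 4 profiles nearest to each receptor, and Cd36. Other genes are marked. Promoter windows are from RefSeq.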

Additional observations from a re-analysis of the deposited data

How the results depend on the processing

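All 6 genes kept differences below 0 in all 12 alternative fits. As both PD.SHR4 arrays lay below every PD array in each gene, only the 2 renormalised fits could have changed a sign. The sign in the other fits was fixed in advance and is no further support. Prlr ranged from -2.23 to -1.89 when 1 array was left out and was -2.11 without variance shrinkage (limma adjusted p = 0.207), where it did not pass. Its adjusted p over the 12 fits ran from 0.00161 to 0.308. With 1 congenic array left out, the lone array was assumed to vary like PD. The number of the 6 genes called was 0 to 1 over the fits without an array, 0 without shrinkage, 2 with the replicate block, with an intensity trend and robust shrinkage, without the dimmest probe sets or after a further quantile normalisation, and 3 with array weights. It stayed 1 with a 1.5-fold limit. The added calls were Socs2, at -1.28 (block), -1.35 (trend; dim probe sets left out), -1.33 (quantile) and -1.45 (weights), and Onecut1 at -1.004 (weights). The ratio of Prlr to Ghr passed at -1.59 (block), -1.88 (trend; dim probe sets left out) and -2.32 (weights), and its adjusted p ran from 0.00402 to 0.376. Prlr over Socs2, added later, passed with weights alone (-0.99). Over all probe sets the call count of 82 became 0 to 55 without an array, 163 with the block, 2 without shrinkage, 151 with the trend, 149 without the dimmest and 819 with weights. In the fits with 0 calls, 737 and 710 probe sets had an unadjusted p under 0.05. The arrays did not overlap in 5 of the 6 genes after median centring (Ghr overlapped) and in 6 after quantile normalisation, in alternatives chosen after seeing the data. The cause of these changes was not tested.

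The strains share replicate numbers 1 and 2, and nothing says that a number pairs arrays. Deviations of same-numbered arrays from their strain means correlated at 0.050 and 0.082 over probe sets. The differently numbered PD array 3 and congenic array 1 correlated at 0.047. In the replicate block fit PD array 3 does not contribute. Using all probe sets of a gene instead of the brightest changed no list's count of called genes.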
